A study of Mus musculus with 9 samples.

Results

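The collagens, laminins and other basement membrane and matrix genes of SMO-M2 driven mouse tumours are described here in 9 bulk RNA-seq libraries. The members were the genes whose symbol is that of a collagen chain or of a laminin alpha, beta or gamma chain, together with Fn1, Nid1, Nid2, Hspg2, Agrn, Sparc, Fbln1, Fbln2, Fbn1, Lox, Loxl1, Loxl2, Ddr1 and Ddr2. The deposited table held 17482 genes, of which 69 had such a symbol, and 64 of these passed a filter on low values, a log2 CPM (CPM, reads scaled to the size of the library) above 0 in at least 3 of the 9 libraries. The 5 that did not pass were Col10a1, Col24a1, Col6a4, Col6a5 and Col6a6. In all, 15251 genes passed.

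YSGr tumours (3 libraries) carried fYap1, fSMO-M2 and hGFAPcre and were marked in the labels as rescued. YSGnr tumours (3 libraries) carried the same alleles and were marked as not rescued, and SG tumours (3 libraries) carried fSMO-M2 and hGFAPcre without fYap1. All groups therefore share the SMO-M2 allele, an active form of the Hedgehog pathway protein Smoothened, and a Cre recombinase under a human GFAP promoter, which is active in neural progenitors and so in the neurons and glia they give rise to. The tissue, recorded as MB, was taken at postnatal day 8 or 9. The labels do not define rescue and do not say whether libraries of a group came from separate animals, and the p-values thus rest on variation among libraries that could be technical.

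Basement membranes are thin sheets of matrix that lie under the pia and around the blood vessels of the brain. Laminin trimers, each of an alpha, a beta and a gamma chain, assemble on the cell surface, type IV collagen forms a second network, and nidogens and the proteoglycans perlecan and agrin join the networks to each other and to cells. In the developing cerebellum the pial sheet borders the outer layer of granule neuron progenitors, and vascular and meningeal cells make much of the collagen. In bulk tissue, fewer cells of a type and less RNA per cell cannot be told apart.

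The genes for the main type IV collagen chains lie in pairs that are read away from a shared start region, and these starts are shown because Col4a1 and Col4a2 were the members called lower in YSGnr in every fit with 1 library left out. On the GRCm38.p6 assembly the start of Col4a1 (chromosome 8, 11312826, − strand) and that of Col4a2 (chromosome 8, 11312805, + strand) are 21 bases apart, with overlapping first exons, and the RefSeq starts of Col4a6 (141474076) and Col4a5 (141475419) on the X chromosome are 1343 bases apart. The GENCODE annotation starts Col4a5 earlier, at 141475385, and the Col4a5 stretch printed here ends before that base. The first sequence holds a CCAAT box of the Col4a1 and Col4a2 start region and lies within the first exon of Col4a1. The others are the bases before the first annotated exon of Col4a5, of Nid1, the nidogen gene, and of Hspg2, the perlecan gene, as examples of genes lower in YSGnr with differing promoters. Capitals mark a CCAAT box (CCAAT, or ATTGG on the other strand), a GC box (GGGCGG, or CCGCCC) or the core of the motif bound by TEAD factors, the DNA-binding partners of Yap1 (GGAATG, or CATTCC).
Col4a1 and Col4a2 (chr8:11312761-11312790, + strand): ccgaggagctccCCAATttgttggcgctgc
Col4a5 (chrX:141475169-141475384, + strand): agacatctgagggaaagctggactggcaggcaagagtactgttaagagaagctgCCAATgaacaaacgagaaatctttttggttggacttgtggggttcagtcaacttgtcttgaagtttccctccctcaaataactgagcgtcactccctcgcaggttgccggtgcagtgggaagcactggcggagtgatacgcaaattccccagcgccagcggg
Nid1 (chr13:13437352-13437550, + strand): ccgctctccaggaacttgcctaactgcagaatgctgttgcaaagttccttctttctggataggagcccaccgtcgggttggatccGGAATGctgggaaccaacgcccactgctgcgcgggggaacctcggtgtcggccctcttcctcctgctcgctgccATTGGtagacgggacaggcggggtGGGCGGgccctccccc
Hspg2 (chr4:137468553-137468768, + strand): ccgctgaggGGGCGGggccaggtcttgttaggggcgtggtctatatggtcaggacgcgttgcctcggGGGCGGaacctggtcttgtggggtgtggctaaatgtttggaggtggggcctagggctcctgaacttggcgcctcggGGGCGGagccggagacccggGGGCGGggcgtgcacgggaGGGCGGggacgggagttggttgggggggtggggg
The Col4a5 stretch holds 1 CCAAT box, the Nid1 stretch 1 of each motif, and the Hspg2 stretch 5 GC boxes and neither of the others. RefSeq windows of 250 bases before the start were found for 44 of the 64 genes, as 53 windows, and these upstream bases were searched on both strands. A GC box lay in 58.5% of these windows, against 32.7% of all 32851 windows, a CCAAT box in 26.4% against 33.8%, and a TEAD core in 11.3% against 12.6%. No matches overlap in the printed sequences, and a match describes the letters only.

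The libraries differed in ways that bear on these genes. Reads calculated back from the table summed to 9.65 M (mega) in YSGnr replicate 1 and to 17.2 to 29.2 M in the other 8 libraries. In YSGnr replicate 1, Yam1 and Lars2 took 63.4% of them, against 1.98% to 8.15% elsewhere. The Yap1 level was 4.44, 3.31 and 2.79 (log2 CPM) in YSGr and 2.79, 2.57 and 1.99 in YSGnr, all below the 5.04, 5.11 and 5.03 of SG. Xist, the RNA of the inactive X chromosome, was high in the 3 YSGr libraries and YSGnr replicate 1 (9.81 to 10.81) and low in YSGnr replicates 2 and 3 and in SG (-1.38 to -0.25), and Ddx3y, on the Y chromosome, was the reverse, so YSGr against SG cannot be told apart from a difference in sex. The summed level of 10 granule progenitor and Hedgehog genes was 2293 to 2902 CPM in YSGr, 2871 to 3365 in YSGnr and 3540 to 3723 in SG, and that of 10 mature granule neuron genes 1457 to 2288, 1130 to 1286 and 830 to 968, in the same order of groups. YSGr replicate 3 stood apart from the other YSGr libraries at several members, given below.

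The matrix genes as a set were lowest in YSGnr. Their summed level was 3577, 3196 and 3260 CPM in YSGr, 2497, 2517 and 2491 CPM in YSGnr and 4540, 4265 and 4206 CPM in SG, so that the groups did not overlap. In YSGnr 17 of 64 fell against SG and none was called higher, where 2.17% of all tested genes fell and 1.19% rose (limma, Benjamini-Hochberg adjusted p below 0.05, called below). One member was higher in YSGnr at an unadjusted p below 0.05, and none was called higher by limma voom. In YSGr 10 of 64 fell and 6 rose against SG, where 3.97% of all tested genes fell and 6.58% rose. Against YSGnr, 15 of 64 rose in YSGr and none was called lower, where 5.09% rose and 0.879% fell; 4 were lower at an unadjusted p below 0.05, and none was called lower by limma voom. The comparisons share libraries and are not independent of each other. The median log2 fold change of the 64 was -0.10 in YSGr against SG, -0.68 in YSGnr against SG and 0.50 in YSGr against YSGnr, where that of all tested genes was -0.02, -0.01 and 0.01.

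In single libraries the median was again lowest in YSGnr, and by this median YSGr replicates 1 and 2 were not separate from SG. The median of the 64 genes relative to the SG mean was -0.01, -0.03 and -0.30 log2 units in YSGr replicates 1, 2 and 3, -0.76, -0.66 and -0.65 in the YSGnr replicates, and 0.08, -0.04 and -0.02 in the SG replicates. YSGr replicates 1 and 2 lay within the SG range by this measure, and YSGr replicate 3 lay below it. All YSGnr libraries lay below all SG libraries at 40 of the 64, where this was so at 21.3% of all tested genes, and above them at 3, where 16.9% were. All YSGr libraries lay below all SG libraries at 20 and above at 11, where 17.3% and 19.5% of tested genes did. All YSGr libraries lay above all YSGnr libraries at 29, where 15.0% of tested genes did, and below them at 1, Ddr2, where 7.46% did. Per kilobase of the longest transcript the most abundant member was Sparc, a matrix glycoprotein that binds collagen, at 191 CPM per kb in YSGr, 139 in YSGnr and 191 in SG. Nid1 was at 41.3, 17.1 and 47.9 CPM per kb and Col4a1 at 36.9, 23.3 and 71.4 in the same order of groups, so Col4a1 ranked second in SG.

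Type IV collagen, the network collagen of all basement membranes, fell in both groups with fYap1. Col4a1 stood at 7.91, 7.75 and 8.12 log2 CPM in YSGr libraries, 7.33, 7.26 and 7.22 in YSGnr and 9.0, 8.86 and 8.78 in SG. The 3 groups did not overlap, with YSGr between YSGnr and SG. Col4a1 was 1.94-fold lower in YSGr than in SG (log2 fold change -0.95, SE 0.14, limma adjusted p = 0.00599) and 3.06-fold lower in YSGnr (-1.61, SE 0.14, adjusted p = 0.00248). Its partner Col4a2 stood at 7.35, 7.18 and 7.26 in YSGr, 6.52, 6.50 and 6.52 in YSGnr and 7.94, 7.84 and 7.78 in SG, again without overlap. It was 1.51-fold lower in YSGr (log2 fold change -0.59, SE 0.11, limma adjusted p = 0.0164) and 2.54-fold lower in YSGnr (-1.34, SE 0.11, adjusted p = 0.00248). Col4a5, the chain of a further type IV network, averaged 4.92 ± 0.06 in YSGr, 4.61 ± 0.06 in YSGnr and 5.51 ± 0.09 in SG (SD, n = 3 each) and fell by 0.58 and 0.89 (SE 0.12 each, limma adjusted p = 0.0173 and 0.0108). Col4a6, its neighbour on the X chromosome, was not called in any comparison, at 3.08 ± 0.35, 2.18 ± 0.56 and 3.06 ± 0.10 in the same order. Of the 8 network collagens that passed the filter, Col4a1, Col4a2 and Col4a5 fell in each comparison with SG. Of all tested genes 3.97% fell in YSGr and 2.17% in YSGnr.

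Col4a3, Col4a4, Col8a1 and Col8a2, the other network collagens, were low and not called. Col8a1 stood at 0.70, 2.91 and -1.05 log2 CPM in YSGr libraries, 0.45, 2.40 and 2.21 in YSGnr and 0.98, 2.08 and 1.27 in SG. The summed level of 10 choroid plexus markers was 120, 1300 and 151 CPM in YSGr, 176, 1526 and 1952 in YSGnr and 335, 787 and 742 in SG, and YSGr replicate 2 and YSGnr replicates 2 and 3 were the highest libraries in both. The part of choroid plexus in these values was not tested.

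Among the laminins, the alpha 1, beta 1 and gamma 1 chains make the trimer of the early and pial basement membrane. Lama1, the alpha 1 gene, stood at 4.09, 4.0 and 4.38 log2 CPM in YSGr libraries, 3.53, 3.37 and 3.70 in YSGnr and 5.0, 4.97 and 4.74 in SG. All libraries of both fYap1 groups were below SG, and Lama1 fell by 0.75 in YSGr (SE 0.16, limma adjusted p = 0.0221) and was at -1.37 in YSGnr (SE 0.16, adjusted p = 0.00735). Lamc1, the gamma 1 gene shared by most laminins, averaged 6.69 ± 0.09 in YSGr, 6.24 ± 0.04 in YSGnr and 7.30 ± 0.09 in SG (SD, n = 3 each). It fell by 0.61 in YSGr and fell by 1.07 in YSGnr (SE 0.11 each, limma adjusted p = 0.0141 and 0.00438). Lamb1, the beta 1 gene, was not called, at 6.09 ± 0.24 in YSGr, 5.53 ± 0.20 in YSGnr and 6.07 ± 0.11 in SG. Of the 11 laminin genes, 3 fell and 1 rose in YSGr, where 3.97% and 6.58% of all tested genes did, and 5 fell in YSGnr, where 2.17% did.

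The alpha 4 and alpha 2 chains belong to laminins of the vessel wall. Lama4 stood at 5.34, 5.17 and 5.20 log2 CPM in YSGr libraries, 4.69, 5.03 and 4.73 in YSGnr and 5.50, 5.36 and 5.58 in SG, so all fYap1 libraries were below SG. It fell in YSGnr (log2 fold change -0.66, SE 0.14, limma adjusted p = 0.0379), and in YSGr the value was -0.25 (adjusted p = 0.299). Lama2 fell by 0.91 in YSGnr (SE 0.19, limma adjusted p = 0.0383), with -0.33 in YSGr (adjusted p = 0.314). Lamc3, the gamma 3 gene, stood at 4.39, 4.0 and 3.89 in YSGr, 2.57, 2.49 and 3.14 in YSGnr and 3.90, 3.75 and 3.61 in SG, with YSGnr alone apart. It fell by 1.02 in YSGnr (SE 0.22, limma adjusted p = 0.041). Lamb3, a chain of an epithelial laminin, rose in YSGr at a low level, at 0.06, 0.31 and 0.35 in YSGr and -1.08, -1.55 and -0.70 in SG (log2 fold change 1.35, SE 0.34, limma adjusted p = 0.0376). The YSGnr libraries, at 0.15, 0.06 and 0.13, were close to YSGr, but the difference from SG was not called (adjusted p = 0.0776).

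Lama5, the alpha 5 chain of mature vascular and epithelial basement membranes, had the largest difference of the 64 genes between YSGr and SG. It stood at 3.50, 3.95 and 6.86 log2 CPM in YSGr libraries, 7.81, 6.75 and 6.28 in YSGnr and 7.90, 7.96 and 7.81 in SG. YSGr replicates 1 and 2 were far below every other library, and YSGr replicate 3 lay within the range of YSGnr. Lama5 fell by 3.11 in YSGr (SE 0.76, 8.66-fold, limma adjusted p = 0.0328), and without YSGr replicate 3 the log2 fold change was -4.16. In YSGnr the value was -0.94 (adjusted p = 0.444). Loxl1, a lysyl oxidase that crosslinks elastin and collagen, was also lowest in YSGr replicates 1 and 2, with replicate 3 above YSGnr. It stood at 4.32, 4.28 and 6.69 in YSGr, 5.96, 6.48 and 6.32 in YSGnr and 7.02, 7.02 and 6.78 in SG. All libraries of both fYap1 groups were below SG, and Loxl1 was not called in YSGr (limma adjusted p = 0.0611). In Col18a1, Fbln2 and Col28a1 too, YSGr replicate 3 was more than 1 log2 unit above the other YSGr libraries and near SG. Col18a1, a basement membrane collagen that yields endostatin, stood at 6.71, 6.48 and 7.83 in YSGr, 7.10, 7.09 and 7.59 in YSGnr and 7.98, 7.88 and 7.85 in SG and was not called (adjusted p = 0.104 in YSGr). In 6 genes, Col8a1, Col14a1, Col19a1, Col23a1, Fbn1 and Lox, that library was more than 1 unit below the other YSGr libraries. Of these, Col8a1 and Col14a1 were at a low level. The shares of all tested genes at which YSGr replicate 3 stood apart in these ways are not given here.

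**Figure D1:**
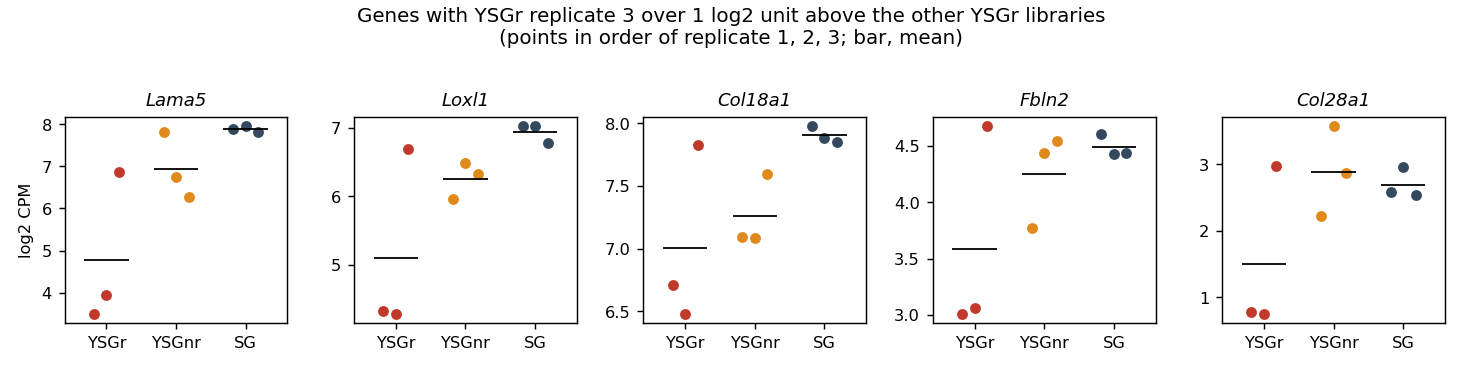
Log2 CPM of Lama5, Loxl1, Col18a1, Fbln2 and Col28a1 in each library, by group (YSGr, YSGnr, SG from the left), with the group mean as a bar and the replicates in order. In each gene the YSGr replicate on the right is above the other YSGr replicates, at 6.86 against 3.50 and 3.95 for Lama5.

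The nidogens, perlecan and agrin join the laminin and collagen networks. Nid1 stood at 8.40, 8.03 and 7.28 log2 CPM in YSGr libraries, 6.71, 6.87 and 6.52 in YSGnr and 8.30, 8.11 and 8.15 in SG, so the YSGnr libraries were below all others. It was 2.80-fold lower in YSGnr than in SG (log2 fold change -1.49, SE 0.25, limma adjusted p = 0.0225), and in YSGr the value was -0.28 (SE 0.25, adjusted p = 0.542). Nid2 stood at 5.32, 5.24 and 4.64 in YSGr, 4.23, 4.0 and 4.18 in YSGnr and 5.26, 4.96 and 5.10 in SG. YSGnr was again below every other library, and Nid2 fell by 0.97 (SE 0.19, limma adjusted p = 0.0337). Hspg2 stood at 6.51, 6.26 and 5.54 in YSGr, 5.23, 3.42 and 4.39 in YSGnr and 6.49, 6.15 and 6.23 in SG. It was 3.84-fold lower in YSGnr (log2 fold change -1.94, SE 0.41, limma adjusted p = 0.0405), the largest fall among the called genes there, and its spread was widest in YSGnr. Agrn, which also organises synapses, averaged 7.49 ± 0.19 in YSGr, 7.21 ± 0.23 in YSGnr and 8.22 ± 0.11 in SG (SD, n = 3 each). It fell by 0.73 in YSGr and fell by 1.01 in YSGnr (SE 0.16 each, limma adjusted p = 0.0237 and 0.0187). All 4 linkers thus fell in YSGnr, where 2.17% of all tested genes did, and 1 in YSGr, where 3.97% did.

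**Figure D2:**
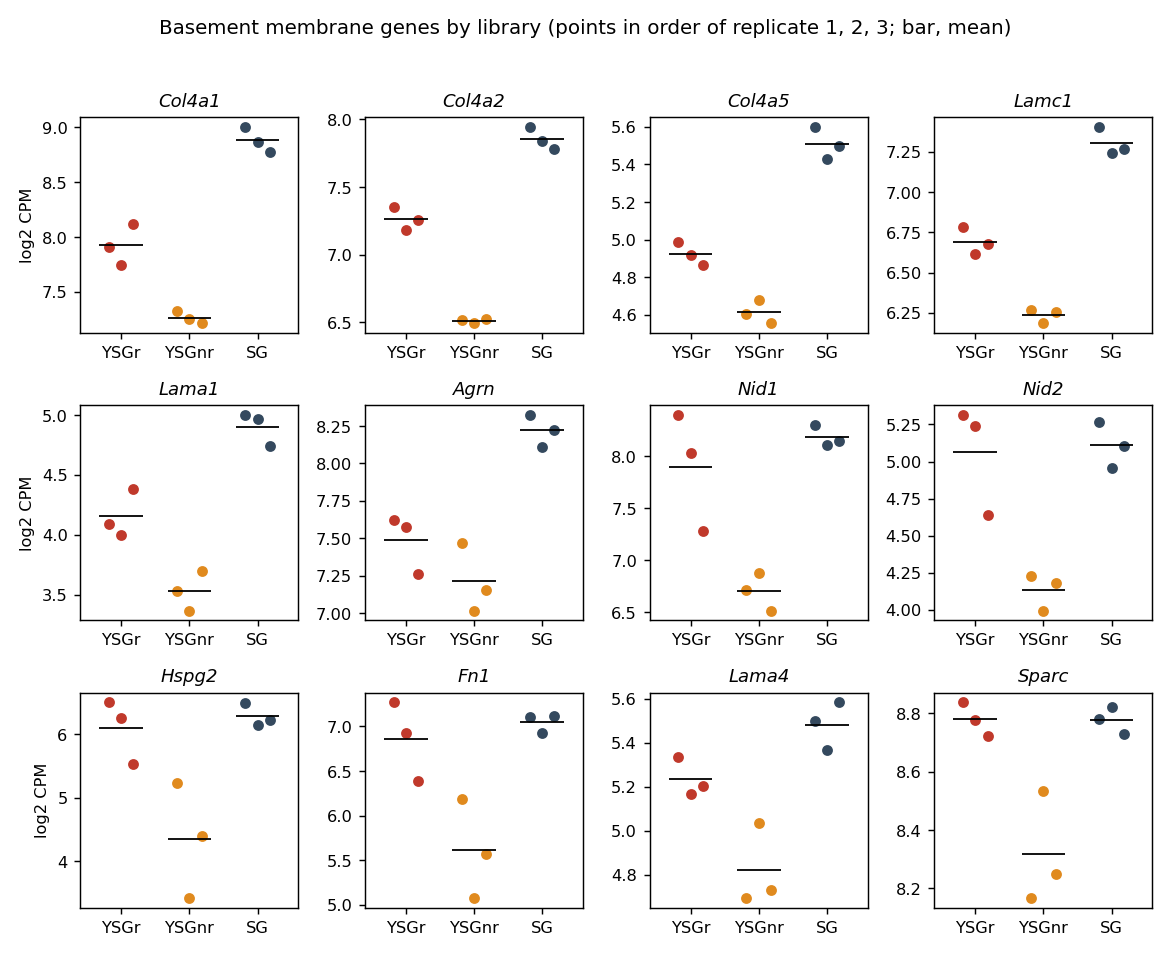
Log2 CPM of 12 basement membrane genes in each library, by group (YSGr, YSGnr, SG from the left), with the group mean as a bar and the replicates in order. In Col4a1 the YSGr libraries (7.75 to 8.12) lie between YSGnr (7.22 to 7.33) and SG (8.78 to 9.0), and in Nid1 and Hspg2 the YSGnr libraries are below all others.

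Fibronectin, encoded by Fn1 and deposited around growing vessels, stood at 7.27, 6.93 and 6.38 log2 CPM in YSGr libraries, 6.19, 5.08 and 5.57 in YSGnr and 7.11, 6.92 and 7.12 in SG. The YSGnr libraries were below all others, 2.71-fold lower on average than SG (limma adjusted p = 0.0356), and in YSGr the value against SG was -0.19 (limma adjusted p = 0.743). Sparc stood at 8.84, 8.78 and 8.72 in YSGr, 8.17, 8.53 and 8.25 in YSGnr and 8.78, 8.82 and 8.73 in SG and was not called (-0.46 in YSGnr, adjusted p = 0.0989). The fibulins and fibrillin 1 were not called in any comparison, and nor were the lysyl oxidases. Of the collagen receptors with kinase activity, Ddr2 stood at 5.42, 4.76 and 5.30 in YSGr, 5.56, 5.68 and 5.58 in YSGnr and 6.39, 6.57 and 6.47 in SG. It fell by 1.32 in YSGr (SE 0.17, limma adjusted p = 0.00387) and was at -0.87 in YSGnr (SE 0.17, adjusted p = 0.0346), and YSGr was the lower of the fYap1 groups in every library. Ddr1, its epithelial and glial counterpart, was not called, at 7.25, 7.37 and 7.45 log2 CPM on average in YSGr, YSGnr and SG.

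The fibrillar collagens moved in both directions. Col5a2, a minor chain that sets fibril width, stood at 5.28, 5.12 and 5.54 log2 CPM in YSGr libraries, 5.10, 5.89 and 5.83 in YSGnr and 6.63, 6.57 and 6.58 in SG. It fell by 1.28 in YSGr and fell by 0.99 in YSGnr (SE 0.21 each, limma adjusted p = 0.00848 and 0.0418). Col11a1, a minor fibrillar chain of cartilage and other tissues, stood at 5.30, 5.01 and 5.57 in YSGr, 5.70, 5.97 and 5.46 in YSGnr and 6.53, 6.45 and 6.51 in SG. It fell by 1.20 in YSGr and fell by 0.78 in YSGnr (SE 0.18 each, limma adjusted p = 0.00596 and 0.0473). In both genes every fYap1 library was below every SG library, and the YSGr and YSGnr libraries overlapped.

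In all, 6 of the 64 genes, all collagens or laminins, rose in YSGr against SG, where 6.58% of all tested genes did. Col2a1, Col9a1 and Col11a2 among them are chains of the cartilage-type fibril, whereas Col11a1, also of that fibril, fell. Each of these 3 rises was called in 4 of the 9 fits with 1 library left out. All 3 were lost when any SG library, or YSGr replicate 1 or 2, was left out. The rises of Col6a1, Lamb3 and Col17a1 were called in 3, 2 and 2 of the 9 fits. Col2a1, the main chain of that fibril, stood at 6.33, 5.90 and 5.41 log2 CPM in YSGr libraries, 4.27, 3.63 and 4.0 in YSGnr and 4.93, 4.90 and 4.51 in SG, with all YSGr libraries above the others. It was 2.14-fold higher than in SG (log2 fold change 1.10, SE 0.25, limma adjusted p = 0.0276). Col9a1, which coats such fibrils, stood at 3.31, 3.21 and 2.27 in YSGr, 1.40, 1.60 and 1.13 in YSGnr and 1.13, 1.45 and 1.71 in SG and was 2.83-fold higher in YSGr than in SG (1.50, SE 0.31, adjusted p = 0.0197). Col11a2 stood at 3.99, 4.50 and 3.27 in YSGr, 2.86, 3.10 and 2.68 in YSGnr and 2.55, 2.30 and 2.93 in SG, and rose by 1.33 (SE 0.31, limma adjusted p = 0.0273). Col9a2 and Col9a3, partners of Col9a1, were not called, and Col9a3 averaged 7.03 ± 0.03 in YSGr, 6.93 ± 0.45 in YSGnr and 6.95 ± 0.04 in SG.

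The remaining collagens that rose in YSGr were Col6a1, of the beaded filament, and Col17a1, a transmembrane collagen of hemidesmosomes. Col6a1 averaged 5.01 ± 0.09 log2 CPM in YSGr libraries, 4.53 ± 0.16 in YSGnr and 4.47 ± 0.12 in SG (SD, n = 3 each), and rose by 0.54 (SE 0.14, limma adjusted p = 0.0378). Its partner Col6a3 behaved differently, at 4.44, 4.22 and 3.83 in YSGr, 2.95, 2.56 and 3.06 in YSGnr and 4.40, 4.05 and 4.30 in SG. It fell in YSGnr (log2 fold change -1.40, SE 0.21, limma adjusted p = 0.0147), and in YSGr the value was -0.09 (adjusted p = 0.84). Col17a1 was at 0.64, 0.93 and 0.01 in YSGr and -1.25, -0.51 and -0.86 in SG (1.40, SE 0.38, limma adjusted p = 0.0472), and would not have passed the filter on low values without its YSGr libraries.

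**Figure D3:**
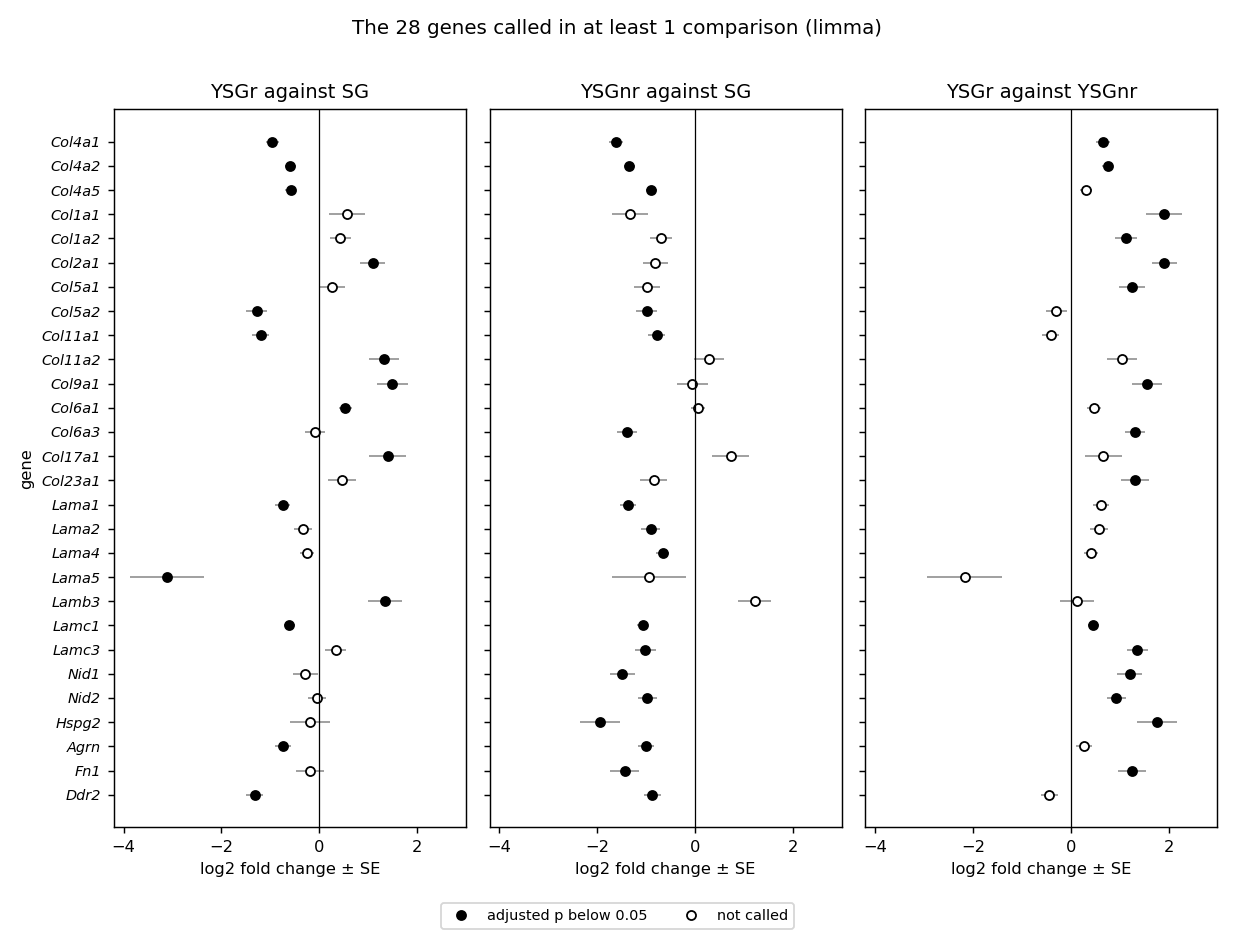
Log2 fold change with its standard error for the 28 genes called in at least 1 comparison, for YSGr against SG, YSGnr against SG and YSGr against YSGnr from the left, with filled points for an adjusted p below 0.05. The called points of YSGnr against SG are all below 0 and those of YSGr against YSGnr all above 0, and YSGr against SG has 6 above and 10 below.

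The direct comparison of YSGr with YSGnr asks how tumours with the same alleles differ by the rescue label. All YSGr libraries were high in Xist and YSGnr replicates 2 and 3 were not, so this comparison is partly confounded with sex, and fully so without YSGnr replicate 1. The 15 genes that rose in YSGr were Col1a1, Col1a2, Col2a1, Col4a1, Col4a2, Col5a1, Col6a3, Col9a1, Col23a1, Lamc1, Lamc3, Nid1, Nid2, Hspg2 and Fn1. Of these, 9, namely Col4a1, Col4a2, Col6a3, Lamc1, Lamc3, Nid1, Nid2, Hspg2 and Fn1, also fell in YSGnr against SG, in a comparison with the same YSGnr libraries. The share of all tested genes called in both ways is not given here, so this overlap is not set against a background. Col1a1, a chain of the type I collagen of connective tissue, stood at 6.66, 6.39 and 5.47 log2 CPM in YSGr libraries, 4.78, 3.47 and 4.53 in YSGnr and 5.66, 5.65 and 5.49 in SG. It was 3.77-fold higher in YSGr than in YSGnr (log2 fold change 1.91, SE 0.37, limma adjusted p = 0.0334), and neither group was called different from SG (adjusted p = 0.37 and 0.0746). Col1a2, the other chain of the trimer, was 2.19-fold higher (1.13, SE 0.22, limma adjusted p = 0.0334), and its YSGr libraries at 7.05, 6.75 and 6.07 were all above the YSGnr libraries at 5.43, 5.47 and 5.58. Col3a1, of the same connective tissue, averaged 7.42 ± 0.24 in YSGr, 7.09 ± 0.44 in YSGnr and 7.34 ± 0.13 in SG and was not called.

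Col5a1, a partner of Col5a2, was 2.39-fold higher in YSGr than in YSGnr and the transmembrane collagen gene Col23a1 2.48-fold higher (limma adjusted p = 0.039 and 0.0396). Of the basement membrane genes Hspg2 was 3.38-fold higher (log2 fold change 1.76, SE 0.41, limma adjusted p = 0.0448), Fn1 2.38-fold (1.25, SE 0.29, adjusted p = 0.0445) and Nid1 2.30-fold (1.20, SE 0.25, adjusted p = 0.0384). Col4a1 was 1.58-fold higher (0.66, SE 0.14, adjusted p = 0.0396). All 15 calls were lost when any SG library, YSGr replicate 1 or 2, or YSGnr replicate 2 or 3 was left out (limma, 0 called, with 26 to 32 of the 64 at an unadjusted p below 0.05). Without YSGr replicate 3 there were 37 calls, 29 higher and 8 lower, and without YSGnr replicate 1 there were 25, 24 higher and 1 lower. The share of all tested genes called in these fits is not given here.

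Transcript length moved with these differences. The members are long, with a median longest transcript of 5828 bases against 3364 for all tested genes. Across 14603 genes the difference of a library from the SG mean had a Spearman correlation with length of 0.15, 0.13 and -0.41 in YSGr replicates 1, 2 and 3, and of -0.07, -0.52 and -0.50 in the YSGnr replicates, as a description over genes that are not independent. With a trend in length and GC content removed from each library, 12 of the 64 fell in YSGnr against SG, where 2.5% of all genes did and 2.73% rose, and none was called higher (2 at an unadjusted p below 0.05). They were Agrn, Col4a1, Col4a2, Col4a5, Col6a3, Fn1, Hspg2, Lama1, Lamc1, Nid1, Nid2 and Sparc. Col5a2, Col11a1, Ddr2, Lama2, Lama4 and Lamc3 were no longer called, and the median of the 64 was -0.40, against 0.04 for all genes. In YSGr against YSGnr 13 rose, where 6.53% of all genes rose and 5.21% fell, and 7 were lower at an unadjusted p below 0.05 with none called. The median was 0.13, and Col4a1 (0.18, limma adjusted p = 0.462), Col4a2 (0.23, adjusted p = 0.28) and Lamc1 (0.02, adjusted p = 0.939) were no longer called. In YSGr against SG 3 rose (Col2a1, Col9a1 and Col11a2) and 15 fell, where 7.74% and 5.51% of all genes did. The median of the 64 in that comparison was -0.28, against -0.10 as deposited, and that of all genes was -0.01. With the trend removed, all YSGnr libraries lay below all SG libraries at 34 of the 64 and above at 4 (17.2% and 20.5% of all genes). All YSGr libraries lay below all SG libraries at 25 and above at 8 (19.2% and 20.2%), and above all YSGnr libraries at 16 and below at 4 (13.3% and 13.5%).

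**Figure D4:**
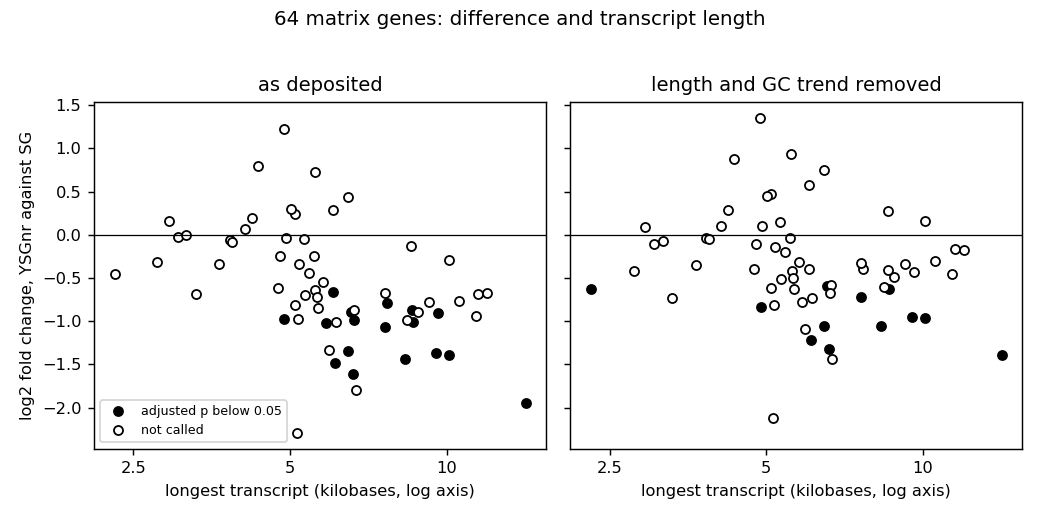
Log2 fold change of YSGnr against SG for the 64 genes against the length of the longest transcript (kilobases, log axis), as deposited and with the length and GC trend removed, with filled points for an adjusted p below 0.05. There are 17 filled points below 0 as deposited and 12 with the trend removed, with Hspg2, Col4a1 and Nid1 filled in both.

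Some markers of other cell types were also lower in YSGnr. Of 14 endothelial markers 3 fell in YSGnr against SG, the receptor genes Kdr (-1.37) and Flt1 (-1.38) and the cadherin gene Cdh5 (-0.95), where 2.17% of all tested genes fell. Pecam1 and Cldn5, also endothelial, were not called (0.09 and -0.20). In YSGr against SG no endothelial marker was called by limma or limma voom, or had an unadjusted p below 0.05, and 3 rose in YSGr against YSGnr, where 5.09% of all tested genes rose. The summed endothelial level was 345 to 365 CPM in YSGr, 230 to 294 in YSGnr and 353 to 393 in SG, so YSGnr was below the others. Of 11 mural cell markers Pdgfrb (-0.95) and Notch3 (-1.41) fell in YSGnr against SG, where 2.17% of all tested genes fell. Cspg4 alone fell in YSGr against SG, where 3.97% fell, and Pdgfrb alone rose in YSGr against YSGnr, where 5.09% rose. The mural sums were 267 to 337 CPM in YSGr, 235 to 283 in YSGnr and 351 to 372 in SG, with YSGr and YSGnr overlapping.

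For 10 astrocyte and Bergmann glia markers the sums were 2417 to 3656 CPM in YSGr, 1806 to 2498 in YSGnr and 2830 to 2943 in SG. All YSGnr libraries were below SG, and YSGr overlapped both. In YSGnr against SG Gdf10, a Bergmann glia gene, fell (-1.17) and Hopx rose (0.68). In YSGr against SG Hopx (1.42) and Gfap (1.71) rose, and in YSGr against YSGnr Gdf10 (1.05) and Hopx (0.74) rose, with a list median of 0.46 against 0.01 for all tested genes.

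The 12 tested fibroblast and meningeal markers moved both ways. In YSGr against SG Dcn (0.85) and Slc6a13 (1.10) rose and Crym (-1.91) and Ngfr (-0.73) fell. In YSGnr against SG Mgp rose (1.71) and Crym fell (-2.87), and in YSGr against YSGnr Slc22a6 (2.80) and Cxcl12 (0.79) rose and Pdgfra (-1.27) and Mgp (-1.05) fell. The list median was 0.21, -0.33 and 0.73 in these comparisons, and the sums overlapped, at 472 to 601 CPM in YSGr, 525 to 594 in YSGnr and 547 to 571 in SG. Every marker of these lists was above the table's lowest value in at least 1 library, and the part of cell composition in the matrix differences was not tested.

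The receptors and enzymes that act on the matrix were followed as further lists. Of 20 integrin and dystroglycan genes, receptors for laminin, collagen and fibronectin, 2 rose and 2 fell in YSGr against SG, where 6.58% and 3.97% of all tested genes did. The laminin receptor genes Itga3 (1.23, limma adjusted p = 0.0164) and Itgb4 (1.42, adjusted p = 0.0295) rose. Itgav (-0.86, adjusted p = 0.021) and Itgb1, the beta 1 subunit shared by most of these receptors (-0.66, adjusted p = 0.0336), fell. In YSGnr against SG 2 fell, Dag1, the dystroglycan gene (-0.61, limma adjusted p = 0.0365), and Itga2 (-2.20, adjusted p = 0.0402), and in YSGr against YSGnr 1 rose, Itga3. The shares of all tested genes were 2.17% and 5.09%. The median log2 fold change of the 20 was -0.24 in YSGr against SG and -0.56 in YSGnr against SG.

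Of 19 tested genes of collagen synthesis and secretion, 1 rose and 1 fell in YSGr against SG, near the 6.58% and 3.97% of all tested genes. They were the procollagen protease gene Bmp1 (0.69, limma adjusted p = 0.0285) and the lysyl hydroxylase gene Plod2 (-0.50, adjusted p = 0.0302). In YSGr against YSGnr 1 of the 19 rose, where 5.09% of all tested genes did. It was Adamts3 (1.67, limma adjusted p = 0.0457), a procollagen protease gene. In YSGnr against SG none was called by limma or limma voom, and 6 had an unadjusted p below 0.05. Of 18 matrix proteases and their inhibitors, 3 rose and 2 fell in YSGr against SG, where 6.58% and 3.97% of all tested genes did. Among these 18 the membrane protease genes called were Mmp24 (1.20, limma adjusted p = 0.0128), Mmp15 (-0.85, adjusted p = 0.0168) and Mmp14 (-0.86, adjusted p = 0.0274). Timp4 and Adamts4 also rose there. Adamts4 was the 1 gene of the 18 that rose in YSGr against YSGnr, where 5.09% of all tested genes did. In YSGnr against SG 1 of the 18 fell, where 2.17% of all tested genes did. It was Mmp9, a gelatinase that cuts type IV collagen (-1.78, limma adjusted p = 0.0443). Of 31 other matrix genes, 3 fell in YSGnr against SG, where 2.17% of all tested genes did. The 3 were Bgn, a small proteoglycan (-0.90, limma adjusted p = 0.0111), Fbn2, a fibrillin (-1.13, adjusted p = 0.0132), and Hmcn1, a hemicentin of basement membranes (-1.78, adjusted p = 0.0326). In YSGr against SG 1 of the 31 rose, Dcn, the decorin gene (0.85, limma adjusted p = 0.021), and 1 fell, Frem1 (-0.52, adjusted p = 0.0429). The shares of all tested genes were 6.58% and 3.97%. In YSGr against YSGnr Bgn rose (0.87, limma adjusted p = 0.0244), as did Egflam, the pikachurin gene (1.00, adjusted p = 0.0382). The share of all tested genes that rose there was 5.09%.

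In no comparison were 36 of the 64 genes called, among them the fibril-associated collagens other than Col9a1, Col15a1 and Col18a1 of the vessel wall, and Lama3, Lamb1 and Lamb2. Of the 28 called anywhere, Col4a1, Col5a2, Col11a1 and Ddr2 were called in YSGr against SG in each of the 9 fits with 1 library left out, and Col4a1 and Col4a2 in YSGnr against SG. The counts of calls were lower with fewer SG libraries, at 4 in YSGr and 2, 3 and 4 in YSGnr without SG replicate 1, 2 and 3. Without YSGr replicate 1 or 2 there were 5 and 4 calls in YSGr and 12 and 9 in YSGnr, and without YSGr replicate 3 there were 28 and 32. Without YSGnr replicate 1, which leaves YSGnr and SG alike in Xist and Ddx3y, 29 of the 64 fell and 1 rose in YSGnr against SG. Leaving out YSGnr replicate 2 or 3 gave 8 and 9 calls there, all lower. The share of all tested genes called in the fits with a library left out is not given here. These counts are therefore not set against a background. Reads of Nid2, Lamc3 and Fbn1 may be shared with an overlapping gene over 8.45%, 6.27% and 20.1% of their exon bases, and no source used here says if strand was used in counting.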

How the data were processed

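RNA from 9 mouse tumour samples was sequenced, per the labels' protocols, on the DNBseq platform. The authors deposited log2 CPM values for 17482 genes. Trimmomatic, Bowtie2, RSEM, Picard, edgeR and the mm10 build are named per the submitters' processing notes, with no versions. No source used here says how strand was handled. The values carry the authors' library scaling and an added count of 2.00 reads on average (lowest value -3.52), so fold changes of genes near that value are understated. Reads calculated back from the steps between values were whole to within 0.02 reads for 31.5% to 60.8% of low values per library, so no count test was the main test.

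Groups were taken from the labels. The 15251 genes above a log2 CPM of 0 in 3 or more libraries were fitted with limma 3.58.1 in R 4.3.3, as a group-means model with a mean-variance trend over all 9 libraries. Calls used an adjusted p (Benjamini-Hochberg, all 15251 genes, two-sided) under 0.05. The steps were tested on simulated data. Lengths, GC content and coordinates came from GENCODE M21 (GRCm38), where 95.6% of symbols matched, and promoter windows from RefSeq (GRCm38.p6). Named genes were every member called in any comparison, 9 basement membrane genes in any case, the most abundant of each role, and the most significant called genes of each further list; a few uncalled genes with uneven libraries were named after their values were seen. The members and lists were chosen with earlier results of these data known. Alternatives were another filter, pseudocount, scaling, array weights, voom, the 6 libraries of a comparison alone, the replicate number as a block, removal of the length and GC trend, and each library left out. A single gene is counted in the totals and not reported by name here.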

Additional observations from a re-analysis of the deposited data

How the results depend on the processing

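The counts of called genes, 16 in YSGr against SG, 17 in YSGnr against SG and 15 in YSGr against YSGnr, ranged from 4 to 28, from 2 to 32 and from 0 to 37 when 1 library was left out. Array weights, whose estimate did not converge, gave 47, 40 and 45 calls. Leaving out YSGr replicate 3 with YSGnr replicate 1 gave 37, 46 and 47. Of the YSGr against YSGnr calls, 36 were higher and 9 lower with array weights, and 38 higher and 9 lower without both libraries. The shares of all tested genes called under these settings are not given here. In YSGr against YSGnr median scaling gave 8 calls and the 6 libraries of these groups alone gave 0 (limma, 28 of 64 at an unadjusted p below 0.05). The replicate block gave 13, 13 and 14 calls, and with the trend in length and GC also removed 9 in YSGnr against SG. Deviations from the group means had correlations of -0.23 to 0.24 between same-numbered libraries and -0.25 to 0.23 between differently numbered ones. With 3 libraries a group these cannot decide whether the numbers pair the libraries. Limma voom gave 18, 18 and 19 calls. A fit with the trend removed and YSGnr replicate 1 left out was chosen after seeing the data. There 13 of the 64 rose and 6 fell in YSGr against YSGnr, with no share of all tested genes given here. The log2 fold change of YSGr against YSGnr turned to -0.086 for Lamc1 (limma adjusted p = 0.599) and to -0.31 for Agrn (adjusted p = 0.0458). Among the 28 genes called in at least 1 comparison, Lamb1 and Sparc, no other fold change called in the main fit or an alternative changed sign. The remaining members were not checked for this. With 3 libraries a group and 3.91 M (mega) effective reads in YSGnr replicate 1, genes near the lowest value were measured least precisely; the causes of these shifts were not tested.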
